A study of Mus musculus with 2 samples.

Results

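Long intergenic noncoding RNA (lincRNA) promoters were examined in 2 chromatin immunoprecipitation sequencing (ChIP-seq) libraries of FLAG-tagged cyclin D1. Members were all genes typed lincRNA on the 19 autosomes and the X chromosome in the GENCODE M1 annotation of mouse genome build NCBIM37, which gave 1273 promoters of 37252 annotated genes. A promoter was the transcription start site (TSS) at the 5′ end of the gene, with tags counted within 500 bp and within 1 kb on either side. The members were split by position: 597 (46.9%) had a protein-coding TSS within 2 kb, and the other 676 (53.1%) did not. The choice used no tag count. Members rarely shared sequence: 24 had a TSS within 2 kb of another member's TSS, and 8 of the 597 shared their nearest protein-coding TSS with another.

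Both libraries came from 3T3 fibroblasts of mouse embryonic origin that lacked Ccnd1, the cyclin D1 gene (Ccnd1-/-), and carried FLAG-tagged cyclin D1 delivered with an MSCV retroviral vector. The cells received no treatment. One library was precipitated with the anti-FLAG M2 monoclonal antibody and the other with normal mouse IgG, each without a replicate, so there was no replicate check on any difference. The knockout, the vector and the added protein were shared by both libraries, and cells without the FLAG tag were not analysed here. Whether the line was 1 clone was not given in the sources used here, and cell identity could not be checked because the files hold DNA tags and no expression values. The anti-FLAG library held 9255188 tags on these chromosomes (3.51 per kb) and the IgG library 9308877 (3.53 per kb), so a window of 1 kb on either side was expected to hold about 7 tags by its length alone.

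LincRNAs are capped, usually spliced transcripts without a recognised long open reading frame. Many start beside the TSS of a protein-coding gene and run away from it, since the promoters of active genes often fire in both directions, whereas others have a promoter of their own. Cyclin D1 partners the kinases CDK4 and CDK6 in driving the G1 to S transition, and it has no DNA-binding domain of its own, so it is found on chromatin together with other proteins.

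Promoter sequence is shown for 4 members of small p and for a well-known snoRNA host gene, because the results below turn on the base composition, the motifs and the neighbouring genes of these stretches. Each runs 5′ to 3′ on the strand of the lincRNA from 250 bp before to 50 bp after the TSS, and capitals mark matches on either strand to a fixed list of promoter motifs. The first 3 had a protein-coding TSS within 2 kb. Gm16994 lies at chr8:86423351-86423650 (minus strand), 604 bp from Lphn1, which encodes an adhesion receptor. 1110020A21Rik lies at chr17:85357001-85357300 (minus strand), in an intron of the protein phosphatase gene Ppm1b, on the opposite strand and running back past its TSS. Gm13986 lies at chr2:117936889-117937188 (minus strand), 674 bp from Thbs1, which encodes the matrix protein thrombospondin 1.
Gm16994: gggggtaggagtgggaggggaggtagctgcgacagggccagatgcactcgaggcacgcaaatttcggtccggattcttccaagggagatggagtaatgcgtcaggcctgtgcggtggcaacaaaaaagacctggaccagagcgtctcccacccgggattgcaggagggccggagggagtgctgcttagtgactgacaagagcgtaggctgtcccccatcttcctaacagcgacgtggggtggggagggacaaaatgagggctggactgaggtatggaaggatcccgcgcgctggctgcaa
1110020A21Rik: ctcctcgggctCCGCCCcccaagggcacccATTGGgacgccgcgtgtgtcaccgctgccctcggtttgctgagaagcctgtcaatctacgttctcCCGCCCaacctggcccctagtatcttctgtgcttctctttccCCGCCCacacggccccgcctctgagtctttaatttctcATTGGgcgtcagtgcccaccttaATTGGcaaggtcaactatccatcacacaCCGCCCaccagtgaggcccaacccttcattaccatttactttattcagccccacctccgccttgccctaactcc
Gm13986: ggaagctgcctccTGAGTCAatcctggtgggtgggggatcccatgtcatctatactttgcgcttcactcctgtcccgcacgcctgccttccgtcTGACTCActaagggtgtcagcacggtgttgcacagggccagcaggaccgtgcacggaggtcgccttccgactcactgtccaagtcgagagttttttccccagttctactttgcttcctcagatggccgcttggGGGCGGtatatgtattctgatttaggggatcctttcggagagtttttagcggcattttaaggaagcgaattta
Gm16994 held no match to any listed motif. 1110020A21Rik held 4 matches to the GC box GGGCGG and 3 to the CCAAT box. Gm13986 held 2 matches to the AP-1 motif TGANTCA, starting 237 and 156 bp before the TSS, and a GC box 23 bp before it.

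The next 2 promoters had no protein-coding TSS within 2 kb. Gm16899, at chr1:7387833-7388132 (minus strand), was 309 kb from the nearest protein-coding TSS, that of Pcmtd1. 2410006H16Rik, at chr11:62416129-62416428 (plus strand), is a small nucleolar RNA (snoRNA) host gene with Snord49b 202 bp from its TSS.
Gm16899: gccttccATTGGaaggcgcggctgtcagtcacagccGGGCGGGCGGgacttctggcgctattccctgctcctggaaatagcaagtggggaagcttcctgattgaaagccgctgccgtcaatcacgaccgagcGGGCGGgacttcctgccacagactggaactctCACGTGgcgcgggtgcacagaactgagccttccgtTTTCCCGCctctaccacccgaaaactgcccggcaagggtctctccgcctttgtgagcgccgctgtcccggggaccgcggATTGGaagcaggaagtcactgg
2410006H16Rik: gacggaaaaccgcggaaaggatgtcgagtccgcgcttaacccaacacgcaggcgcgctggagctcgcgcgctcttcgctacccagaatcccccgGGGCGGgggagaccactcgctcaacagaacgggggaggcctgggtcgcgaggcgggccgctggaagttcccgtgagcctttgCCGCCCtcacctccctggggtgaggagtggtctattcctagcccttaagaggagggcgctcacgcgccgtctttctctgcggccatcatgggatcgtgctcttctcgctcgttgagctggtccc
Gm16899 held 3 GC boxes, an E-box CACGTG 86 bp before the TSS, an E2F motif TTTCCCGC 51 bp before it and 2 CCAAT boxes. 2410006H16Rik held 2 GC boxes upstream of the TSS. G and C made up between 54.0% (Gm13986) and 65.7% (2410006H16Rik) of these 5 stretches.

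Anti-FLAG tags exceeded IgG tags at both classes of lincRNA promoter, and the excess was larger beside protein-coding genes. Within 500 bp of the TSS, members with a protein-coding TSS within 2 kb summed to 5581 anti-FLAG and 2269 IgG tags, a ratio of 2.47 after scaling IgG to the library totals (95% Clopper-Pearson interval 2.36 to 2.60). The rest summed to 4518 and 2777 tags, a ratio of 1.64 (1.56 to 1.72). Protein-coding promoters, for comparison, had a ratio of 2.21 (2.19 to 2.23), processed transcripts 1.47 and pseudogenes 1.07. Members beside protein-coding genes thus stood above the protein-coding class as a whole, and the rest stood between it and the pseudogenes. This order takes no account of base composition, which differed between the classes. The 593 protein-coding promoters nearest to the members beside coding genes stood higher than those members, at 3.01 (2.86 to 3.17). These sets are not independent. A protein-coding TSS lay within 500 bp of 400 of those members, so the windows around both TSSs overlap and share tags. Their separate intervals therefore do not test the difference. All intervals cover counting error only, because tags without molecular identifiers are not independent molecules and each antibody had 1 library.

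The odds ratio of the 4 summed counts, which compares the 2 classes directly, was 1.51 within 500 bp (95% exact interval 1.41 to 1.62; 2-sided Fisher's exact test p = 6.42e-33). Within 1 kb the members beside protein-coding genes held 10321 and 5372 tags (ratio 1.93, interval 1.87 to 2.00) and the rest 8481 and 5747 (1.48, 1.43 to 1.53), and the odds ratio was 1.30 (1.24 to 1.37). Within 250 bp it was 1.79 (1.61 to 1.98). The odds ratio was thus larger in the narrower windows, which lie inside the wider ones. These tests compare the tags of 2 libraries, not 2 antibodies over replicates. The windows within 500 bp of 400 members beside protein-coding genes also held the coding TSS itself. The odds ratio thus includes tags at coding promoters, and their part in it was not tested.

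The libraries also differed in how they covered DNA of different GC content. In 500-bp windows more than 10 kb from every TSS, the anti-FLAG to IgG ratio was 0.727 at 30 to 32% GC, 1.34 at 50 to 52% and 2.80 at 64 to 66%. The median GC content within 500 bp of the TSS was 59.0% for members beside protein-coding genes and 49.4% for the rest. CpG content differed as well: the observed over expected CpG ratio reached 0.6 in 416 members (69.7%) beside protein-coding genes and in 133 (19.7%) of the rest, against 45.6% of protein-coding promoters. An expected tag number was therefore also computed for each window from its IgG tags and the ratio of distal windows of the same GC content.

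Against that expectation the excess was smaller and remained above 1 in both classes. Within 500 bp, observed over expected was 1.67 (1.59 to 1.75) for members beside protein-coding genes and 1.31 (1.25 to 1.38) for the rest. The odds ratio between the classes fell to 1.27 (1.18 to 1.36) within 500 bp and 1.17 (1.12 to 1.23) within 1 kb. These intervals take the GC expectation as known.

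**Figure D1:**
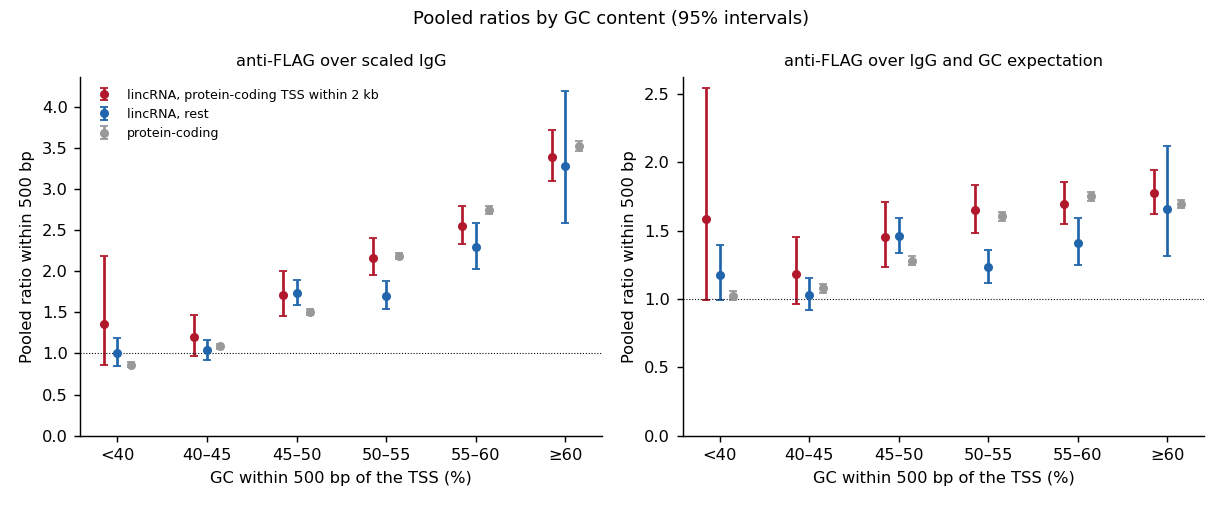
Pooled anti-FLAG to scaled IgG ratio (left) and observed over GC-expected tags (right) within 500 bp of the TSS (vertical axes) against the GC content of the promoter (horizontal axis, %), for lincRNA promoters with a protein-coding TSS within 2 kb, the rest, and protein-coding promoters. Points are pooled ratios with 95% intervals for counting error. In the left panel all 3 classes are highest at 60% GC or more, and between 50 and 55% GC the members beside protein-coding genes lie above the rest in both panels.

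Compared at like GC content, the 2 classes of lincRNA promoter differed in some strata only. Their odds ratio within 500 bp was 1.27 (1.10 to 1.47) between 50 and 55% GC, with an adjusted p of 0.00327 (exact test, Benjamini-Hochberg over 7 strata). It was 1.15 (0.905 to 1.46) between 40 and 45%, 0.986 (0.820 to 1.19) between 45 and 50%, 1.11 (0.958 to 1.30) between 55 and 60% and 1.03 (0.795 to 1.33) at 60% or more, none of which passed. Among promoters with a CpG ratio under 0.6 the odds ratio was 1.22 (1.10 to 1.36; exact adjusted p = 7.73e-04), and among the CpG-rich ones it was 1.11 (0.985 to 1.25; exact adjusted p = 0.193). The strata that passed changed with the width of the window. Within 250 bp the comparisons at 40 to 45% GC (1.49), at 55 to 60% GC (1.36) and among CpG-rich promoters (1.26, 1.05 to 1.52) passed, each with an exact adjusted p of 0.0217, and the one at 50 to 55% GC did not (0.975 to 1.49, exact adjusted p = 0.118). Within 1 kb only the comparisons at 50 to 55% GC (1.18, 1.06 to 1.31) and under a CpG ratio of 0.6 (1.23, 1.14 to 1.32) passed. The odds ratio there was 1.01 (0.936 to 1.10) among CpG-rich promoters and 0.898 (0.774 to 1.04) at 60% GC or more. The comparison under a CpG ratio of 0.6 thus passed at every width. A missed threshold does not show that the classes were alike in a stratum, and every interval within 500 bp reached at least 1.19.

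CpG content also divided the 676 promoters away from protein-coding genes. The 133 CpG-rich ones had a ratio of 2.59 within 500 bp and the 543 others had 1.42. The odds ratio was 1.83 (1.63 to 2.06), and 1.47 (1.30 to 1.65) against the GC expectation. Observed over expected was 1.75 and 1.19 in these sets.

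The 21757 protein-coding promoters without a lincRNA TSS within 2 kb gave a further reference. Within 500 bp, members beside protein-coding genes exceeded them with an odds ratio of 1.13 (1.08 to 1.19), and 1.08 (1.03 to 1.14) against the GC expectation. Within 250 bp the latter value was 0.997 (0.926 to 1.07), whereas without the correction it was 1.09 (1.01 to 1.17; exact p = 0.0295). The rest fell below them within 500 bp, at 0.749 (0.713 to 0.786) and 0.852 (0.812 to 0.895). At like composition the order of members beside protein-coding genes and all protein-coding promoters varied. Among CpG-rich promoters their ratios within 500 bp were 2.88 and 3.06, and observed over expected was 1.83 and 1.84. Under a CpG ratio of 0.6 the ratios were 1.73 and 1.47. At 60% GC or more they were 3.39 and 3.52, and between 45 and 50% GC they were 1.71 and 1.51.

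**Figure D2:**
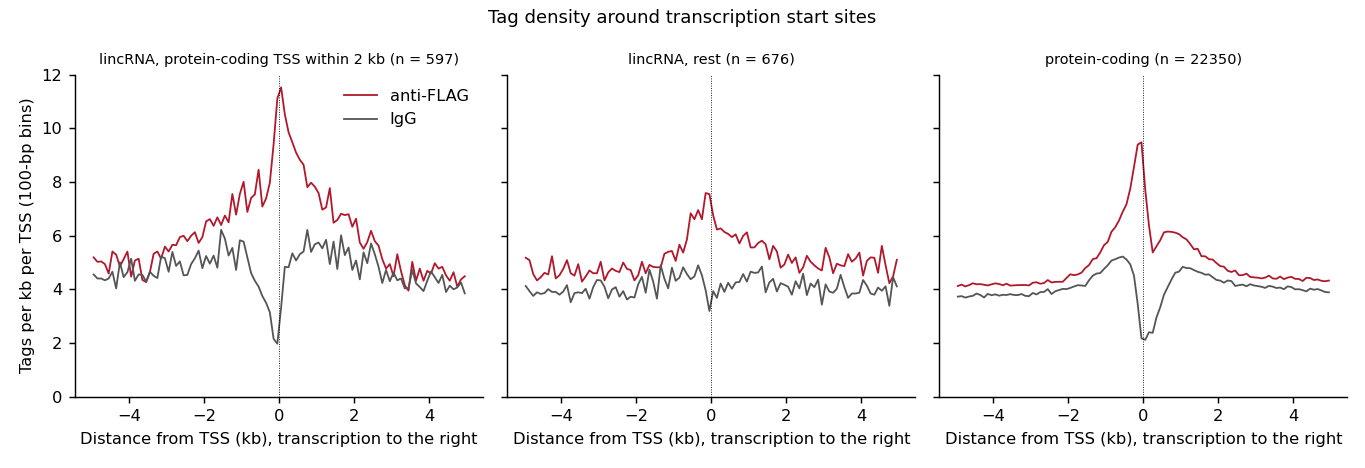
Tags per kb per TSS in 100-bp bins (vertical axis) against distance from the TSS in kb (horizontal axis, transcription to the right), anti-FLAG and IgG, for 597 lincRNA promoters with a protein-coding TSS within 2 kb, 676 others and 22350 protein-coding promoters. Lines are means over promoters of 1 library each; anti-FLAG rises and IgG dips at the TSS in each panel, and both are shallowest in the middle one.

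Tag density peaked at the TSS in the anti-FLAG library while the IgG library dipped there. At members beside protein-coding genes, the anti-FLAG density in the bin centred 50 bp after the TSS was 2.39 times that found 4 to 5 kb away, whereas the IgG density 50 bp before the TSS was 0.454 times its own distant level. The rest peaked at 1.58 times in anti-FLAG, 150 bp before the TSS, with an IgG low of 0.806 times. Protein-coding promoters peaked at 2.22 times and dipped to 0.549 times. The ratio of the libraries at a TSS thus held both a rise of anti-FLAG tags and a deficit of IgG tags.

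Orientation toward the protein-coding neighbour was tied to where the excess lay. Of the 597 members, 314 were divergent, starting upstream of a neighbour transcribed away from them. Another 281 lay on the opposite strand with the coding TSS downstream: 279 of these started inside the coding gene and 278 ran back past its TSS, so they are called antisense here. The remaining 2 shared the neighbour's strand. In the 500 bp upstream of divergent members, where most of their partners start, there were 1538 anti-FLAG and 291 IgG tags, a ratio of 5.32 (4.69 to 6.05) and an observed over GC-expected ratio of 2.77 (2.44 to 3.15). In the 500 bp downstream, the transcribed side of the lincRNA, the counts were 1827 and 947 and the ratio 1.94. The IgG count differed more between the sides than the anti-FLAG count did.

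Antisense members showed the reverse order of sides, with a ratio of 2.65 downstream, toward the coding TSS, and 1.80 upstream. The rest were nearly even, at 1.69 upstream and 1.58 downstream. Within 500 bp on either side of the TSS, divergent members exceeded the other members near coding genes with an odds ratio of 1.27 (1.15 to 1.40), and 1.25 (1.13 to 1.38) against the GC expectation. Lying inside a coding gene was also common among the rest: 286 of 676 (42.3%) did, mostly in introns (93 in an exon). Within 500 bp these held 1649 and 1153 tags (ratio 1.44, 1.33 to 1.55), and the 390 outside coding genes held 2869 and 1624 (1.78, 1.67 to 1.89), so the intervals did not overlap. This split was made after the counts were seen.

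**Figure D3:**
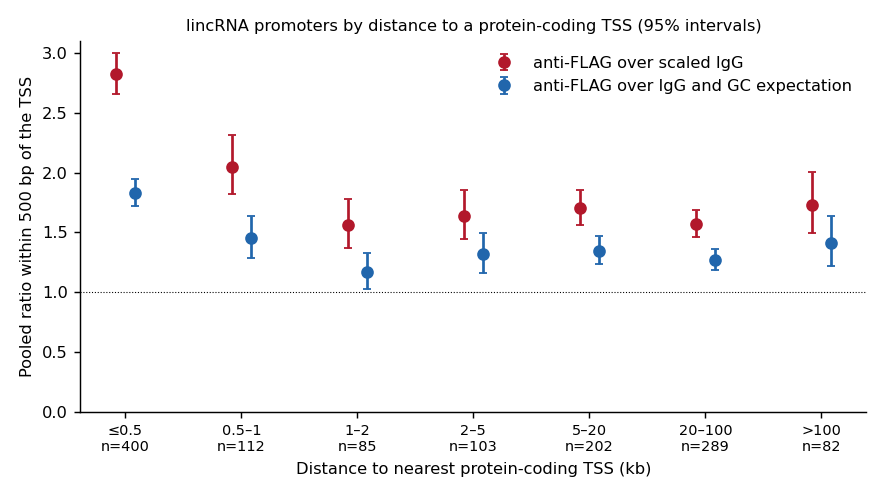
Pooled ratio within 500 bp of the lincRNA TSS (vertical axis) against the distance to the nearest protein-coding TSS in kb (horizontal axis, number of promoters under each bin), as anti-FLAG over scaled IgG and as observed over GC-expected tags, with 95% intervals. The ratio is highest within 0.5 kb (2.83) and lies between 1.56 and 1.73 in all 5 bins beyond 1 kb.

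Counted within 500 bp of the lincRNA TSS, the ratio fell over the first kb from a protein-coding TSS and showed no further order beyond it. The 400 members within 0.5 kb of a protein-coding TSS had a ratio of 2.83 and an observed over expected of 1.83, and the 112 members between 0.5 and 1 kb had 2.05 and 1.45. The 85 members between 1 and 2 kb had 1.56 and 1.17 (1.03 to 1.33), no higher than any bin farther out. The 82 members more than 100 kb away still had 1.73 and 1.41. Counted within 1 kb of the lincRNA TSS, the ratio was 1.98 for members within 0.5 kb, 2.05 between 0.5 and 1 kb, and 1.55 between 1 and 2 kb. The fall over the first kb was thus not seen at that width. At the 2-kb limit itself, the last member inside was D930049A15Rik, 1943 bp from Zmiz1, with 17 anti-FLAG and 3 IgG tags within 1 kb, and the first outside was Gm16705, 2100 bp from Kcnq5, with 4 and 8.

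Single promoters held few tags. The median member beside a protein-coding gene had 16 tags from anti-FLAG and 8 from IgG within 1 kb (quartiles 10 to 23 and 5 to 12), and the median of the rest had 10 and 8 (6 to 16 and 5 to 12). The median IgG counts were thus equal in the 2 classes and the median anti-FLAG counts were not. Anti-FLAG exceeded scaled IgG at 537 of 597 members (89.9%) beside protein-coding genes and 492 of 676 (72.8%) of the rest, against 76.2% of protein-coding promoters. No tag of either library fell within 1 kb of 2 and 15 members, respectively, and a count of 0 allows up to 3 tags.

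**Figure D4:**
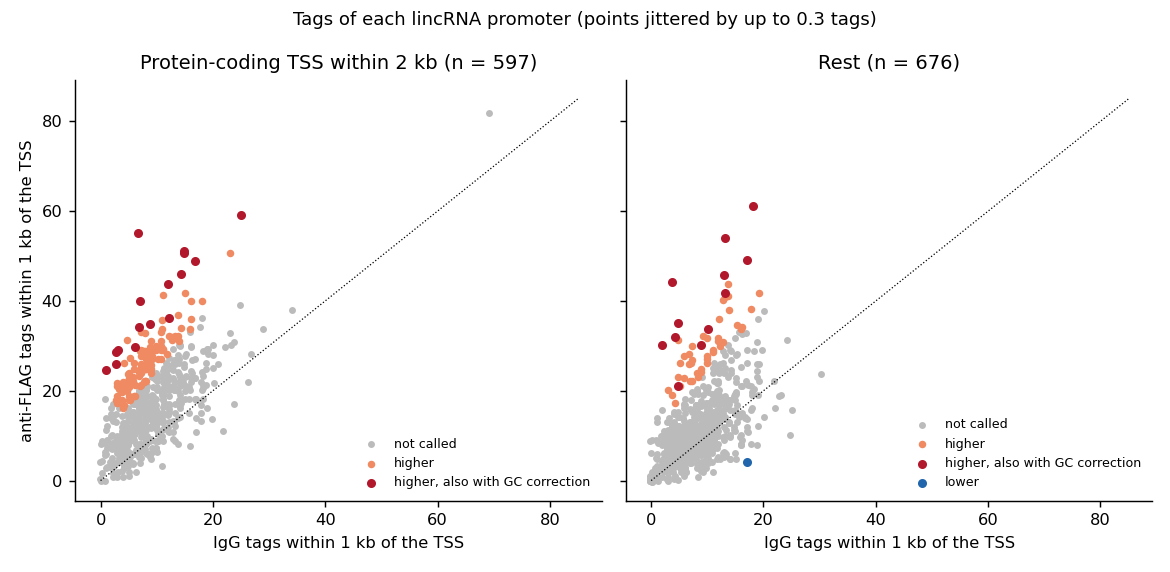
Anti-FLAG tags (vertical axis) against IgG tags (horizontal axis) within 1 kb of the TSS for each lincRNA promoter, split by whether a protein-coding TSS lay within 2 kb; the dotted line marks equal counts, and points are jittered. Colours mark members past the test, 120 of them on the left and 54 on the right, and the 1 lower member.

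A minimum of 20 tags over the pair of libraries left 714 members to be tested one by one, 401 beside protein-coding genes and 313 of the rest. The anti-FLAG count was higher at 174 members (24.4%) by the 2-sided exact binomial test with Benjamini-Hochberg adjustment at 0.05 over all genes, against 23.9% of all annotated genes tested and 27.7% of protein-coding genes, so the lincRNA share was near the background. The 174 comprised 120 members beside protein-coding genes (29.9%) and 54 of the rest (17.3%). The median log2 ratio of the tested members was 0.95 beside protein-coding genes and 0.56 for the rest, against 0.77 over all genes tested. The tag minimum counts the anti-FLAG tags themselves, so it selects on the value compared. Over all members, tested or not, the medians were 0.85 and 0.42, against 0.39 over all annotated genes. Within 500 bp, 203 members reached the minimum and 107 were higher (52.7%), against 59.7% of all genes tested there, with 61 of 117 beside protein-coding genes (52.1%) and 46 of 86 of the rest (53.5%). The order of the class shares was thus not seen at that width. The median IgG count within 500 bp was 3 beside protein-coding genes and 4 for the rest. A minimum of 20 tags there selects for anti-FLAG tags, so these shares cannot rank the classes. With the GC expectation and 1 kb on either side, 28 were higher (3.92%, as 16 and 12 by class), against 2.94% of all genes. The medians of the tested members were then 0.61 and 0.37, against 0.49. That number fell to 6 when GC was read from the central 500 bp alone and to 10 when it was read from the whole window. No member was lower with the GC expectation, against 0.0273% of all genes, and without it 1 was, against 0.13%.

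Among promoters beside protein-coding genes, Gm16994 had the smallest p. Within 1 kb it held 55 anti-FLAG and 7 IgG tags, and 42 and 0 within 500 bp, a log2 ratio of 2.81 on counts plus 1 (exact adjusted p = 8.99e-08; 1.96e-04 with the GC expectation). Its tags lay in a region of excess centred 25 bp from the TSS, with the Lphn1 TSS 604 bp upstream. Within 500 bp of the Lphn1 TSS there were 17 and 1 tags, fewer than at the lincRNA TSS. Gm13986 held 40 and 7 tags (exact adjusted p = 9.10e-05; 0.00895 with the GC expectation) beside Thbs1.

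In some others of this class most tags lay more than 500 bp from the lincRNA TSS. 1110020A21Rik held 25 anti-FLAG tags and 1 IgG tag within 1 kb but 9 and 0 within 500 bp, and the Ppm1b TSS, 969 bp downstream, held 19 and 5 within 500 bp. 4930513N10Rik (29 and 3), which starts in an intron of Cnot1, a subunit gene of the CCR4-NOT deadenylase, held 9 and 0 within 500 bp, and the Cnot1 TSS 636 bp away held 18 and 5. 4932412D23Rik, divergent from the zinc-finger gene Zbtb20, held 29 and 3 within 1 kb, and 10 and 0 within 500 bp. These 3, with Gm6410, 4930426I24Rik and 1700125G22Rik, held under 20 tags within 500 bp and were not tested at that width. Their log2 ratios within 500 bp ranged from 0.47 for 4930426I24Rik to 3.46 for 4932412D23Rik.

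In contrast, 1700028E10Rik held 51 and 15 tags within 1 kb, of which 36 and 1 lay within 500 bp. 1700022N22Rik, 19 bp from the Solh TSS, held 26 and 3, of which 20 and 0 lay within 500 bp. Most anti-FLAG tags of these members thus lay within 500 bp of the lincRNA TSS, and the window of the same width around the Solh TSS held the same 20 and 0. Gm10501, beside Lsm2, which encodes a subunit of the LSm ring in RNA decay and splicing, held 51 and 15 within 1 kb and 22 and 7 within 500 bp.

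Other partners of the named members encode a range of proteins. 1700125G22Rik (34 and 7 tags within 1 kb) starts 148 bp from Ect2, a cytokinesis exchange factor gene. Gm16675 (41 and 11) is divergent from Irf2, an interferon regulatory factor gene, and 4930426I24Rik (44 and 12) from the heat-shock gene Hspa2. Gm6410 (31 and 5) starts 97 bp from Gm7461. With the GC expectation Gm6410 (exact adjusted p = 0.0538) and Gm16675 (0.0665) no longer passed.

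Among promoters away from protein-coding genes, Gm16899 led with 44 tags from anti-FLAG and 4 from IgG within 1 kb and 20 and 1 within 500 bp (log2 ratio 3.18, exact adjusted p = 4.13e-07; 2.34e-05 with the GC expectation). It overlapped 2 regions of excess, one centred 118 bp upstream of the TSS with 13 and 1 tags and one 757 bp downstream with 22 and 3. Gm17712 held 54 and 13 within 1 kb, of which 44 and 8 lay within 500 bp. 9130213A22Rik held 30 and 2 within 1 kb but only 3 and 0 within 500 bp, since its region of excess, with 58 and 9 tags, was centred 1409 bp upstream. This member starts in an exon of Hes7, a Notch-regulated repressor gene whose TSS lay 2185 bp downstream, and the region spanned the 3′ end of Hes7. The excess at this member was thus not at its own TSS.

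Gm17608 (35 and 5), Gm17274 (32 and 4), Gm14963 (31 and 5) and Gm17395 (46 and 13) followed, at 69 kb from Bcl9, 8.39 kb from Nudt14, 2634 bp from Ehd1 and 17.5 kb from Klrb1b. 2310001H17Rik held 49 and 17, 37.4 kb from Cd69, an early lymphocyte activation gene. Gm14963, which starts in an intron of Ehd1 (exact adjusted p = 0.0527), 2410006H16Rik (0.0729) and C030005K06Rik (0.0541; 26 and 5 tags) missed the threshold with the GC expectation. The member lower in anti-FLAG was Gm17362, 8576 bp from Polb, with 4 anti-FLAG and 17 IgG tags, and it did not pass with the GC expectation (exact adjusted p = 0.147). Within 500 bp it held 2 and 6 tags, too few to test.

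High IgG counts went with high anti-FLAG counts at some members. The 5 given here were chosen for the most IgG tags within 1 kb, which favours a low ratio at that width. Gm16869 held the most tags of all, 82 anti-FLAG and 69 IgG, and did not pass the test. Gm16677 (38 and 34), 4930505N22Rik (34 and 29), 1110019D14Rik (28 and 27) and Gm10492 (24 and 30) also held many tags of both libraries. None of them passed within 1 kb. Within 500 bp, however, Gm16677 held 25 and 7 and passed (exact adjusted p = 0.0051), and 4930505N22Rik overlapped a region of excess with 23 and 5 tags, centred 498 bp from its TSS. At these promoters, chosen by that count, the IgG count within 1 kb alone was above the median anti-FLAG count.

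Several leading members of the second class lay beside genes for small structured RNAs, which are not protein-coding and so were not used in the split. Gm13421 (61 and 18) had the spliceosomal U6atac RNA gene 496 bp away, C920006O11Rik (42 and 13) had 7SK, the RNA that holds the elongation kinase P-TEFb inactive, 281 bp away, and 2410006H16Rik (44 and 14) had Snord49b. Of 676 members, 44 had a TSS of some other gene type within 2 kb. Their odds ratio against the 632 without one was 1.54 (1.29 to 1.85) within 500 bp, and 1.40 (1.17 to 1.69) against the GC expectation. This comparison was chosen after the counts were seen.

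By type of neighbour, the 13 members beside a snoRNA gene held 260 and 126 tags within 1 kb, and 5 of the 8 tested were higher. The 4 beside a small nuclear RNA gene held 163 and 65 and 3 of 4 tested were higher. Of 6 tested members beside a microRNA gene 1 was higher. In all, 12 of 26 tested members with a TSS of any other gene type within 2 kb were higher (46.2%), against 23.9% of all genes. They were D230017M19Rik, Gm16880, Gm11974, 2410006H16Rik, 4833417C18Rik, Gm13421, 9430008C03Rik, Gm17494, Snhg12, Gm12758, C920006O11Rik and Snhg5. The 26 included 4 beside a processed transcript, of which 2 were higher, and 1 beside a pseudogene, which was not. With the GC expectation 2 of the 26 were higher (7.69%), against 2.94% of all genes. A CpG ratio of at least 0.6 was found in 22 of the 44 (50%), against 17.6% of the 632 without such a neighbour. The part of CpG content was not tested.

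Regions of anti-FLAG excess, found in 500-bp windows without regard to genes, overlapped the 1-kb window of 106 members (8.33%), against 5.27% of all genes and 7.42% of protein-coding genes. These were 65 members (10.9%) beside protein-coding genes and 41 (6.07%) of the rest. At a stricter Poisson threshold of 1e-07 the number was 51 (4.01%), against 2.23% of all genes and 3.05% of protein-coding genes. With the GC expectation it was 46, with 23 in each class, against 2.21% of all genes. No member overlapped a region of IgG excess, against 0.00805% of all genes.

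The list of well-known lincRNAs held 29 members, of which 21 could be tested and 7 were higher (33.3%), against 23.9% of all genes. None was lower, against 0.13% of all genes tested. Anti-FLAG exceeded scaled IgG at 26, and it did so at 80.8% of all lincRNA promoters and 68.8% of all annotated genes. The list summed to 600 anti-FLAG and 300 IgG tags (ratio 2.01, 1.75 to 2.32), and the median log2 ratio of its 21 tested members was 1.06, beside 0.77 over all genes tested. Over all 29, tested or not, the median was 0.92, beside 0.39 over all annotated genes. H19, Malat1 and Neat1 are typed otherwise in this annotation and were not members. The grouping of the list that follows was made after the counts were seen.

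**Figure D5:**
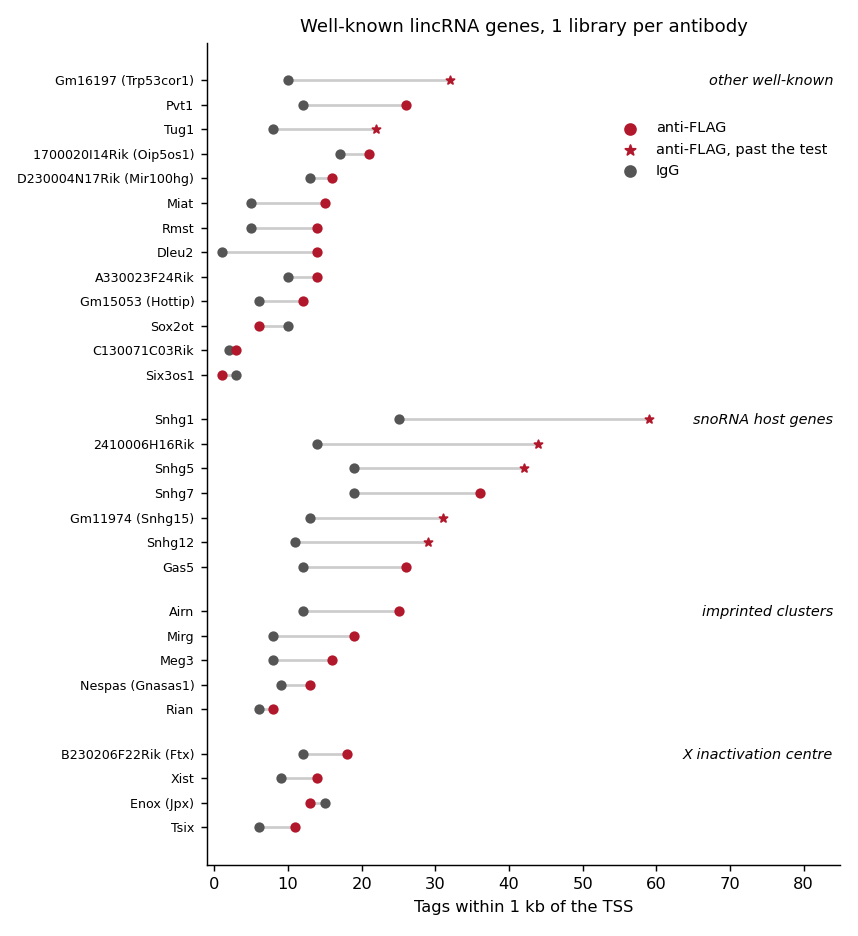
Tags of each library within 1 kb of the TSS (horizontal axis) at 29 well-known lincRNA genes (vertical axis, current names in brackets) in 4 groups, 1 library per antibody; stars mark anti-FLAG counts past the test. Of the 7 stars, 5 are snoRNA host genes and none lies in the X inactivation or imprinted groups, where 3 and 4 genes were tested.

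The snoRNA host genes, whose introns release the snoRNAs that guide ribosomal RNA modification, summed to 267 and 113 tags (2.38, 1.90 to 2.99), and 5 of 7 were higher, against 23.9% of all genes. Snhg1, beside the amino acid transporter gene Slc3a2, held 59 and 25 (exact adjusted p = 0.00344) and was the 1 listed member past the test with the GC expectation (0.0497), which 2.94% of all genes passed. 2410006H16Rik held 44 and 14 (0.00189), Snhg5 42 and 19 (0.0203), Snhg12 29 and 11 (0.0243) and Gm11974, now Snhg15, 31 and 13 (0.0325). Gas5, inside Zbtb37 with 26 and 12 tags, and Snhg7, with 36 and 19, had exact adjusted p of 0.0777 and 0.0751. The host genes thus all had anti-FLAG above IgG, as did 68.8% of all annotated genes after scaling.

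None of the X inactivation genes was higher by the exact test among 3 tested, too few to compare with the 23.9% of all genes. Xist, the RNA that coats the inactive X chromosome, held 14 anti-FLAG and 9 IgG tags, its antisense partner Tsix 11 and 6, Enox (Jpx) 13 and 15, and B230206F22Rik (Ftx) 18 and 12. Their sum gave a ratio of 1.34 with an interval of 0.883 to 2.05 that includes 1. Among imprinted noncoding RNAs, Meg3 held 16 and 8, Rian 8 and 6, Mirg 19 and 8, Airn 25 and 12, and Nespas 13 and 9. None of the 4 tested passed, also too few to compare with the 23.9% of all genes. The 5 together had a summed ratio of 1.89 (1.29 to 2.81). Xist and Tsix overlap on opposite strands, and the counts here do not use strand.

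Of the 13 remaining genes on the list, 7 were tested and 2 of these were higher, against 23.9% of all genes tested. Gm16197 (Trp53cor1, also known as lincRNA-p21), a p53-induced RNA gene upstream of the CDK inhibitor gene Cdkn1a, held 32 and 10 (exact adjusted p = 0.00702; 0.134 with the GC expectation). Tug1 held 22 and 8 (0.0447; 0.432). Pvt1, next to Myc, held 26 and 12 and did not pass (0.0777). Dleu2 held 14 and 1, too few for the 20-tag minimum, and passed with a minimum of 10 tags (0.0117).

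Motif content differed between the classes in the stretch from 250 bp before to 50 bp after the TSS. The GC box GGGCGG was present on either strand in 61.3% of members beside protein-coding genes, 26.0% of the rest and 43.5% of protein-coding promoters. TATAAA was present in 4.69%, 12.9% and 13.4%, and the AP-1 motif TGANTCA in 3.18%, 8.73% and 6.93%. The NRF1 motif GCATGCGC was present in 4.86%, 1.18% and 3.30%, and the CCAAT box in 35.3%, 35.4% and 37.9%. GC boxes and NRF1 motifs were thus commoner beside coding genes, AP-1 and TATA letters commoner elsewhere, and CCAAT equally common.

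Set against the tag counts, the GC box was present in 27 of 54 higher members of the rest (50%) and in 29.7% of those tested and not higher. The E-box CACGTG was present in 16.7% (9 members) and 9.27% of these sets. Other motifs differed less or went the other way, with the CCAAT box in 40.7% and 33.6%, TATAAA in 13.0% and 11.6%, and the AP-1 motif in 9.26% and 10.0%. Beside protein-coding genes the GC box shares were 67.5% and 60.9%. These shares are descriptions; GC content moves with both the GC box and the library ratio, and its part in these shares was not tested.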

How the data were processed

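The deposited files list aligned 36-bp tags of 1 anti-FLAG and 1 IgG library, with positions, strand and, per the file headers and columns, a score that is 512 on every line and was not used. Per the labels' protocols, chromatin was fixed with formaldehyde, sonicated and precipitated on protein G beads; the aligner and the build were not given in the sources used here. No tag 5′ end lay beyond a chromosome end of NCBIM37 (GENCODE M1), which was used throughout. Current gene names came from RefSeq, which matched 745 of 1273 members.

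Tags were moved 72 bp downstream and counted around each TSS. IgG was scaled by the library totals (factor 0.994). Windows with at least 20 tags were tested with a 2-sided exact binomial test, adjusted by Benjamini-Hochberg over all annotated genes at 0.05, with log2 ratios on counts plus 1. The GC expectation used 500-bp windows more than 10 kb from every TSS in 2-point GC strata, with the ratio capped above 66% GC. It was computed from the 500-bp subwindows of each promoter window, 4 of them for 1 kb on either side and fewer for narrower windows. Regions of excess were merged 500-bp windows in 250-bp steps with at least 10 anti-FLAG tags, 2-fold over the largest local or genome-wide scaled IgG level and Poisson p under 1e-05. The scripts were tested on simulated data, with Python 3.11.15, NumPy 2.4.6, SciPy 1.17.1, pandas 2.3.3 and Matplotlib 3.10.9.

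Named members were the 12 of smallest p in each class, all lower ones and up to 12 of those past the test with the GC expectation. The 5 members of most IgG tags and the members of a list of 54 well-known lincRNAs were also named. The members and lists were chosen with earlier results of these data known. Counting width, tag offset, tag minimum, scaling, GC correction, TSS choice and the 2-kb limit were varied. P-values measure sampling of tags in these 2 libraries. Sequences were chosen from the 3 of smallest p in each class and the listed members past the test; that of 9130213A22Rik was not printed because its excess lay outside the stretch, and that of 1 other leading member is not reported here.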

Additional observations from a re-analysis of the deposited data

How the results depend on the processing

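The 174 higher members became 107 within 500 bp, of which 80 were among the 174, and 28 with the GC expectation, and ranged from 140 to 233 under 8 other settings. The 1 lower member became 0 within 500 bp, within 2.5 kb, with at least 10 tags, with no tag minimum and with the GC expectation. The 28 became 6 with GC from the central 500 bp and 10 with GC from the whole window, both chosen after seeing the data. The 106 members in regions became 51 at a Poisson p under 1e-07 and 46 with the GC expectation.

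Scaling to background bins moved the median log2 ratio of all tested genes from 0.77 to 0.89. It gave pooled ratios within 500 bp of 2.71 beside protein-coding genes and 1.79 for the rest, and within 1 kb of 2.11 and 1.62. The GC expectation gave 1.67 and 1.31, and 1.48 and 1.26. Setting the limit of nearness at 1 kb gave 2.66 within 500 bp, and at 5 kb 2.35. The odds ratio between the classes stayed between 1.27 and 1.63 within 500 bp, and 1.17 and 1.34 within 1 kb, in 10 alternatives each. Of 59 named results none reversed under the settings run; 11 lost the call with the GC expectation, and 10 held under 20 tags within 500 bp and were not tested there. No paired analysis was possible because each antibody had 1 library, and for the same reason no library was left out. Depth limits single promoters: 196 members beside protein-coding genes and 363 of the rest held under 20 tags and were not tested.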
